A study of Mus musculus with 8 samples.

Results

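Replication-dependent histone genes encode the linker histone H1 and the core histones H2A, H2B, H3 and H4 that package newly copied DNA. They were taken here as every gene in the count table whose symbol starts with Hist1h, Hist2h, Hist3h or Hist4h, which gave 69 of the 26586 genes listed. There were 6 H1, 19 H2A, 19 H2B, 12 H3 and 13 H4 genes, of which 55 were named for the Hist1 cluster, 10 for Hist2, 3 for Hist3 and 1 for Hist4. RNA-Seq was performed on total RNA of primordial follicles from the ovaries of mice at postnatal day 3. The 4 mito-supplemented samples came from the third generation of offspring after mitochondria were added at fertilisation, and the 4 control samples from animals named only as control in the labels. The labels give all 8 samples the same strain background, C57Bl/6 x CBA, and in the paper the females that gave the founders' oocytes were F1 animals of C57BL6/J/MARP and CBA/MARP. In the study's methods the added mitochondria were isolated from egg precursor cells of the same strain and injected into the oocyte together with a spermatozoon. The founders' oocytes were superovulated, and the embryos were cultured, vitrified, warmed and transferred to recipient females. The colony controls of the study came from natural matings, and its RNA methods name no control that was injected or handled in this way. The added mitochondria, the injection and these other steps therefore cannot be told apart. Each sample was a pool of follicles from an ovary. The labels call the samples biological replicates and the paper counts 4 mice in each group. Which of them shared a litter was not given in the sources used here. Label codes start alike for control replicates 1 and 2, for control replicates 3 and 4, and for mito-supplemented replicates 1 to 3. What the codes stand for was not given either, and p values measure only the spread between these samples.

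Most messenger RNAs of these genes end in a stem-loop in place of a poly(A) tail, and the stem-loop binding protein Slbp holds it during processing, export, translation and decay. Their transcription and stability are tied to DNA synthesis, so that dividing cells hold far more of these messages than resting cells, whereas variant histones such as H2afz and H3f3a are made from ordinary polyadenylated messages throughout the cell cycle. Oocytes of primordial follicles are arrested in meiotic prophase and the pregranulosa cells around them divide rarely, and libraries made from total RNA with the removal of rRNA can hold messages with and without a poly(A) tail.

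The stem-loop was found in the annotated transcripts of 44 of the 69 genes, always after the end of the coding sequence, and for the others the letters were not in the transcript as annotated. It is shown for members of each family because it is the element that these messages share and the rule on symbols did not use. The sequences come from GENCODE M21 transcripts with their positions on GRCm38, and capitals mark the 16 bases of the stem-loop in the 3' untranslated region.
Hist1h1e (H1, chr13:23621782-23621797, minus strand): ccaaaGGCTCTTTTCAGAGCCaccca
Hist2h2ac (H2A, chr3:96220418-96220433, minus strand): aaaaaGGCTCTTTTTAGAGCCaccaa
Hist1h2bm (H2B, chr13:21722506-21722521, plus strand): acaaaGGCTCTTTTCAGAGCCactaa
Hist1h3c (H3, chr13:23745047-23745062, minus strand): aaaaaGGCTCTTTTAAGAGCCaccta
Hist1h4d (H4, chr13:23581950-23581965, plus strand): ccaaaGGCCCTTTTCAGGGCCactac
The form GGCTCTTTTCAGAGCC was found in 3 H1, 10 H2A, 8 H2B and 5 H3 genes and in 0 H4 genes. The form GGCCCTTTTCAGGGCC was found in 7 H4 genes and in no other family. Between the end of the coding sequence and the stem-loop lay 43 bases in Hist1h1e, 30 in Hist1h2bm and 39 in Hist1h4d. A match is a description of these letters and shows no binding.

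RefSeq start sites with the 250 bases before and 50 after them were at hand for 62 of the genes, and are shown for an H1, an H2B and an H4 gene among those with the highest levels. Capitals mark the TATA box TATAAA, the box named for its letters CCAAT and the octamer ATTTGCAT. Both strands were searched, so that the reverse ATTGG and the reverse octamer ATGCAAAT are marked too. The sequences are RefSeq promoters on GRCm38.p6, written along the gene.
Hist1h1b (chr13:21780576-21780875, minus strand): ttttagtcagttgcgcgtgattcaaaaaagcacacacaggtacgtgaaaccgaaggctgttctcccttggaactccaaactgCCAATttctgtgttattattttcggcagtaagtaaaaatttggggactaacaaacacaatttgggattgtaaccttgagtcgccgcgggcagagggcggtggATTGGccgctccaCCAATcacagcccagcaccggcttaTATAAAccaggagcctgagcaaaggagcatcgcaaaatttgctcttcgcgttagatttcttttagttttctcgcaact
Hist1h2bm (chr13:21721794-21722093, plus strand): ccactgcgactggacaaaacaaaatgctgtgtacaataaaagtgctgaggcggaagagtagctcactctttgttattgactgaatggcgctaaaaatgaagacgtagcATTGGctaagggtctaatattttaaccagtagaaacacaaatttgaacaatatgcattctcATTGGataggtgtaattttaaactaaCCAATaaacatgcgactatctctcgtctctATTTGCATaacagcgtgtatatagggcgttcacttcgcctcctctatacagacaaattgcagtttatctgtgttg
Hist1h4d (chr13:23581318-23581617, plus strand): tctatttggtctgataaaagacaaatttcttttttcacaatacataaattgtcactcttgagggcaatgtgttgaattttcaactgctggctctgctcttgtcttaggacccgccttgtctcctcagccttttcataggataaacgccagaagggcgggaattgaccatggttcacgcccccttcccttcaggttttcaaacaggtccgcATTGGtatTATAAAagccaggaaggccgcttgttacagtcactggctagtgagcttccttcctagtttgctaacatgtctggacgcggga
CCAAT was present in 85.5% of the 62 histone promoters and in 37.9% of the promoters of 27025 genes. All 6 H1, 18 H2A, 16 H2B and 10 H3 promoters held it, but only 3 of 12 H4 promoters. TATAAA or its reverse TTTATA was present in 56.5% of the histone promoters and 14.2% of all promoters. The octamer was present in 20.97% against 1.75%, in 7 H2A and 6 H2B promoters and in 0 of the other families. These are descriptions of letters in a window, and binding was not measured.

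The libraries held 17658559, 13917412, 18219362 and 10370045 counts for control replicates 1 to 4 and 19760763, 13370911, 16116434 and 13276462 for mito-supplemented replicates 1 to 4. The rRNA genes Rnr1, Rnr2, Rn45s and Rn18s took 75.3% of the counts of control replicate 4, which left 2559876 counts on other genes, and between 20.1% and 45.5% elsewhere. Levels are given in CPM, the counts scaled to a common library size by edgeR's TMM method. At a count of 0 the limit of 3 counts was 0.123 CPM in control replicate 1, the lowest, and 0.592 CPM in control replicate 4, the highest, and such limits cover counting error only. Oocyte markers, 18 genes including Ddx4, Figla and Nobox, were counted in every library, with a summed level of 4282, 222, 201 and 765 CPM in control replicates 1 to 4 and 337, 234, 926 and 139 CPM in mito-supplemented replicates 1 to 4. The most abundant of them per length, Nlrp5, a maternal-effect gene of the oocyte, was at 1392 CPM in control replicate 1 and at 18.4 CPM in mito-supplemented replicate 4. The defining oocyte genes Ddx4, Nobox and Figla were above 0 counts in all 8 libraries, and 0 counts were found only for Oosp1 and Oog1. Pregranulosa markers, 13 genes including Foxl2 and Wt1, summed to 273, 194, 251 and 709 CPM in control replicates 1 to 4 and 448, 975, 668 and 1061 CPM in mito-supplemented replicates 1 to 4. Markers of both cell types of the follicle were thus counted in each library, at levels that differed widely.

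Control replicates 2 and 3 and mito-supplemented replicate 1 stood apart in the level of histone genes. The summed level of all 69 genes was 149.9, 1996, 1746 and 467 CPM in control replicates 1 to 4 and 1721, 241, 182 and 464 CPM in mito-supplemented replicates 1 to 4. The highest library, control replicate 2, was 13.3 times the lowest, control replicate 1, and the high libraries came from both groups. In these bulk libraries, fewer cells of a kind and less RNA per cell cannot be told apart. The mean of the controls was 1089.6 ± 917 CPM and that of the mito-supplemented libraries 652 ± 723 CPM (SD over 4 libraries per group), and the difference of -438 CPM was smaller than the SD of either group. It was -278 CPM when scaled by total counts alone and -770.0 CPM when scaled by counts outside rRNA genes. Without the 3 libraries that stand apart, the TMM value was -12.9 CPM, but these were chosen after seeing the data and for the histone level itself. Leaving out the high values of both groups narrows the range, so no conclusion is drawn from the smaller value. With 1 library left out the difference was -751, -136 or -219 CPM when that library was control replicate 1, 2 or 3, and -794 or -281 CPM when it was mito-supplemented replicate 1 or 3. Histone genes made up 0.181%, 0.168% and 0.179% of all counts in control replicates 2 and 3 and mito-supplemented replicate 1, and between 0.0207% and 0.0503% in the other libraries. The number of histone genes with at least 10 counts was 56 in each of these 3 libraries, and 33, 25, 33, 38 and 35 in control replicates 1 and 4 and mito-supplemented replicates 2, 3 and 4.

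**Figure D1:**
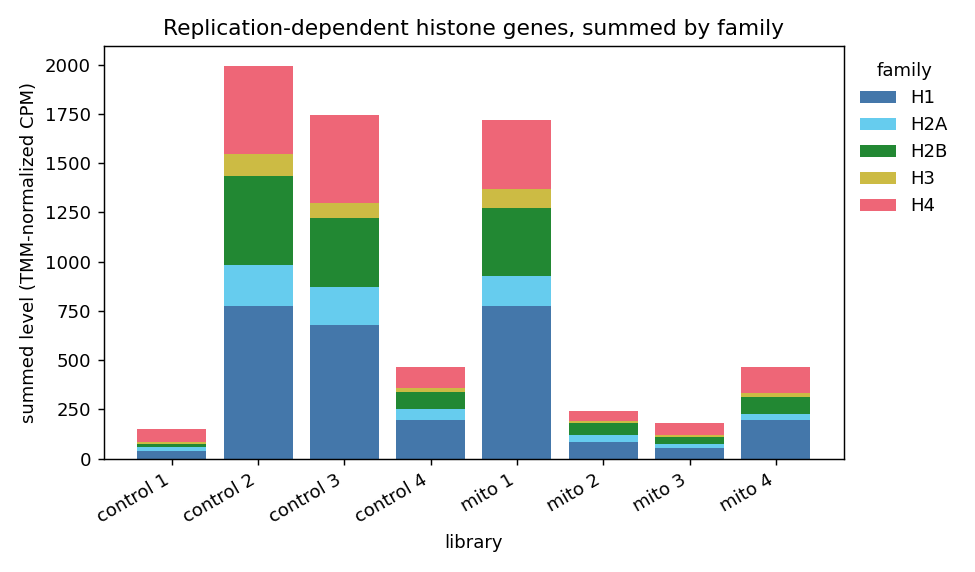
Summed level of the 69 histone genes in each library, in TMM-normalized CPM on the vertical axis, stacked by family, with 1 bar for each of 4 control and 4 mito-supplemented (mito) libraries. Control replicates 2 and 3 and mito-supplemented replicate 1 reach 1996, 1746 and 1721 CPM, and the other bars lie between 149.9 and 467 CPM.

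In each of the 5 families the same 3 libraries were highest. H1, which binds linker DNA, summed to 38.3, 774, 679 and 197 CPM in control replicates 1 to 4 and 774, 86.7, 55.4 and 197 CPM in mito-supplemented replicates 1 to 4. H2B summed to 17.4, 453, 347 and 85.3 CPM in the controls and 348, 59.01, 37.5 and 86.1 CPM in the mito-supplemented libraries, and its highest library was 26.03 times its lowest. H4 summed to 63.3, 451, 447 and 110.1 CPM in the controls and 354, 49.8, 63.2 and 131 CPM in the mito-supplemented libraries, with a ratio of 9.06. In all 3 of these families the high values were those of control replicates 2 and 3 and mito-supplemented replicate 1, and the groups overlapped. H2A summed to 19.7, 208, 195 and 57.2 CPM in the controls and 153, 34.5, 17.1 and 31.98 CPM in the mito-supplemented libraries, and H3 to 11.3, 109.8, 78.1 and 17.8 CPM in the controls and 92.5, 11.01, 8.48 and 17.7 CPM in the mito-supplemented libraries. The make-up of the histone counts moved less than their amount: H1 made up 25.5% to 44.95% of them over the 8 libraries, H2A 6.89% to 14.3%, H2B 11.6% to 24.5%, H3 3.8% to 7.53% and H4 20.5% to 42.2%. The share of H4 was highest in control replicate 1, the library with the lowest summed histone level and the highest level of oocyte markers. A single gene, Hist1h4d, held between 86.7% and 94.98% of the H4 counts in every library. By comparison, Hist1h1b, the H1 gene with the most counts, held 25.1% to 38.7% of H1 counts, and Hist1h2bm 15.1% to 36.3% of H2B counts.

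The genes lie in clusters, and the same 3 libraries were highest for the 2 long stretches of Hist1 and for Hist2 and Hist3. The Hist1 genes occupy chromosome 13 of GRCm38 in stretches parted by more than 500 kb. The first, chr13:21715763-22043676, holds 23 genes and summed to 17.3, 641, 545 and 128 CPM in the controls and 559, 67.04, 45.2 and 109 CPM in the mito-supplemented libraries. The second, chr13:23531050-23934851, holds 31 genes and summed to 104, 1095, 981 and 278 CPM in the controls and 988, 131, 111 and 306 CPM in the mito-supplemented libraries. The ratio of the highest to the lowest library was 37.1 in the first and 10.5 in the second. Hist1h2al, annotated as a processed pseudogene, lies apart at chr13:51202727-51203065, with 4.27, 11.3, 4.23 and 0 CPM in the controls and 6.26, 2.01, 0.408 and 0.765 CPM in the mito-supplemented libraries. The 10 Hist2 genes on chromosome 3 summed to 13.8, 199.7, 174 and 46.98 CPM in the controls and 125, 27.4, 18.8 and 38.2 CPM in the mito-supplemented libraries, and the 3 Hist3 genes on chromosome 11 to 10.1, 43.9, 39.2 and 13.8 CPM in the controls and 40.1, 13.3, 6.17 and 7.3 CPM in the mito-supplemented libraries. Hist4h4, the single Hist4 gene, on chromosome 6, was at 0.574, 4.84, 2.63 and 0 CPM in the controls and 2.77, 0.623, 0.408 and 2.64 CPM in the mito-supplemented libraries. For these 2 single genes the order was another, since control replicate 1 was above control replicate 3 for Hist1h2al and mito-supplemented replicate 4 was level with control replicate 3 for Hist4h4.

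Near-identical copies limit what counts of single members mean. Of all 75-base windows of an annotated transcript, the length of the reads, a median of 42.4% per member also occurred in the transcript of another gene. For 5 members, Hist2h2aa1, Hist2h2aa2, Hist2h2bb, Hist2h3b and Hist2h3c1, every window was shared, in part with overlapping gene models of other names. For 5 others, Hist1h1a, Hist1h1b, Hist1h1t, Hist2h2be and Hist2h4, none was. The median was 0.74% in H1, 65.5% in H2A, 36.9% in H2B, 59.03% in H3 and 24.6% in H4. How reads that map to several places were counted, and the strand setting, were not given in the sources used here, so counts of single members other than those with no shared window are uncertain. The exons of 25 members overlap those of another gene model, which adds to this. The same limit applies to the share of Hist1h4d in the H4 counts given above, since 3.67% of its windows were shared, beside the H4 median of 24.6%.

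Levels between genes were compared as mean CPM over the 8 libraries per kilobase, with the shorter of the GENCODE exon length and the RefSeq span as the length. Hist1h4d came first with 466 CPM per kilobase, followed by the H1 genes Hist1h1b with 172 and Hist1h1e with 128, and by the H2B genes Hist1h2bm with 114, Hist1h2bl with 85.9 and Hist2h2bb with 80.2. Hist1h1a with 64.8 and Hist1h1c with 64.5 CPM per kilobase completed the 8 members with the highest levels, which held between 64.5% and 78.3% of the histone counts of each library. With GENCODE exon lengths alone, 7 of these 8 were still among the 8 highest, and Hist1h1b came first with 172 CPM per kilobase before Hist1h4d with 164. The spread between libraries was far larger than the steps between neighbours in this order. Hist1h4d (chr13:23581598-23582735) was at 58.01, 391, 399.9 and 105 CPM in control replicates 1 to 4 and 323, 43.8, 55.4 and 122 CPM in mito-supplemented replicates 1 to 4. Hist1h1b (chr13:21779883-21780625) was at 9.6, 286, 262 and 63.8 CPM in the controls and 298, 26.9, 19.3 and 54.6 CPM in the mito-supplemented libraries. For both genes control replicates 2 and 3 and mito-supplemented replicate 1 were the highest libraries, and the groups overlapped. Hist1h1a, like Hist1h1b without a shared window, was at 4.64, 126, 121 and 17.6 CPM in the controls and 78.6, 9.21, 5.44 and 21.3 CPM in the mito-supplemented libraries. Hist1h2bm was at 2.63, 149, 126 and 18.4 CPM in the controls and 96.9, 16.6, 9.66 and 22.1 CPM in the mito-supplemented libraries. The libraries that were high for H1 were therefore also high for H2B. The difference appeared in Hist1h1a and Hist1h1b, which have no shared window, as well as in Hist1h4d and Hist1h2bm. In Hist2h2be, also without a shared window, control replicate 4 at 21.3 CPM lay above control replicate 2 at 18.2 CPM. Hist1h1e was at 10.99, 212, 176 and 67.7 CPM in the controls and 201, 27.7, 14.3 and 91.4 CPM in the mito-supplemented libraries, Hist1h2bl between 0.902 and 79.9 CPM, and Hist2h2bb between 3.55 and 91.3 CPM, with the lowest library of Hist2h2bb being control replicate 4.

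The edgeR filter on low counts kept 45 of the 69 genes among 13873 genes tested. The stem-loop was annotated in 30 of those tested. The 24 genes not tested held between 0 and 297 counts in all libraries together, with 297 for Hist1h4f and 177 for Hist1h4h. Hist1h2af had 0 counts, and Hist2h2aa1 had 1, Hist1h2br 3, Hist2h2aa2 7 and Hist1h2ap 8. Of the 45 tested, 28 had their highest level in control replicate 2, 10 in control replicate 3 and 7 in mito-supplemented replicate 1, and 0 in any other library. Over all genes tested these libraries held the highest level of 17.1%, 6.53% and 8.07% of genes. The SD of log2 CPM over the 8 libraries had a median of 1.79 in the histone genes tested and of 0.98 in all genes tested. Among histone genes it was lowest for Hist2h2ab at 1.02 and highest for Hist2h2be at 2.56.

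**Figure D2:**
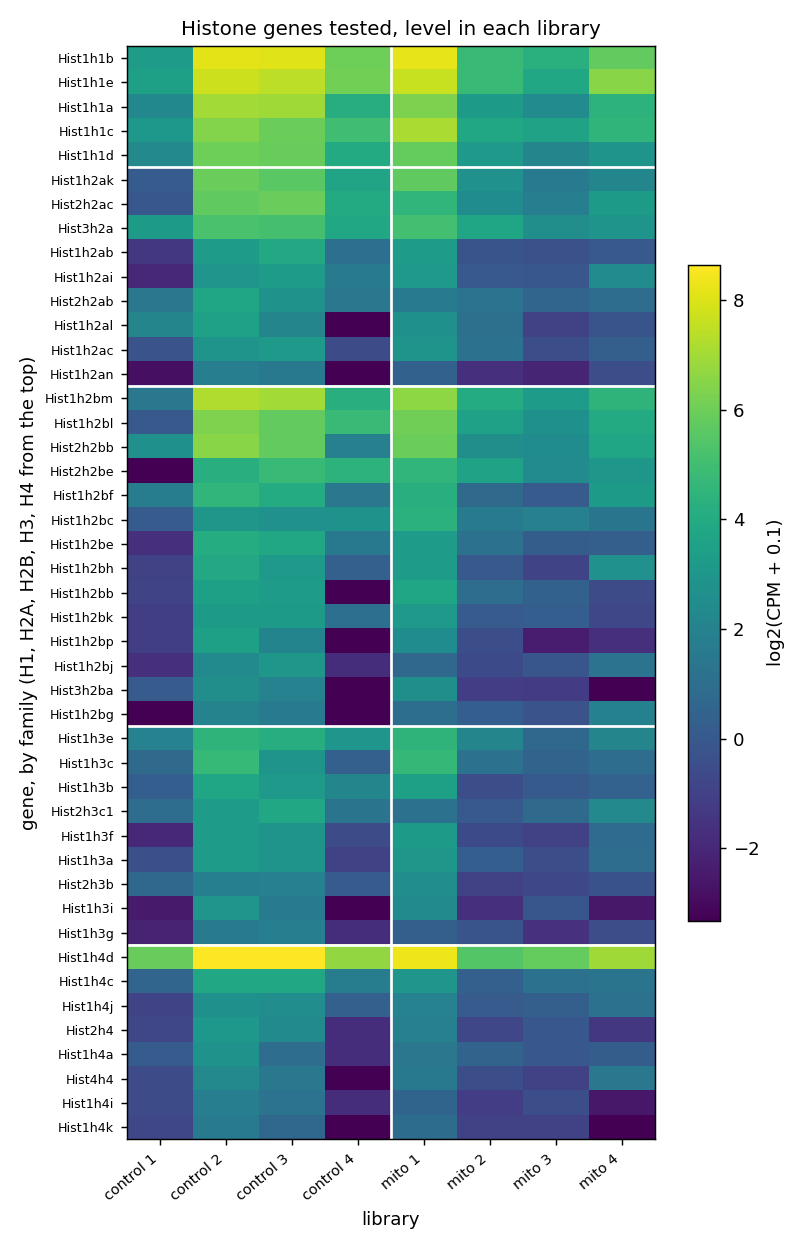
Level of each of the 45 histone genes tested, as log2(CPM + 0.1), in the 4 control and 4 mito-supplemented (mito) libraries, with families parted by white lines and genes ordered by mean level in each. The columns of control replicates 2 and 3 and mito-supplemented replicate 1 are the brightest in every family, and these hold the highest value of 28, 10 and 7 genes.

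In the comparison of mito-supplemented with control samples, no histone gene passed the test. A gene counted as called when its p from the quasi-likelihood test of edgeR, adjusted by the Benjamini-Hochberg method over all genes, was under 0.05 and its log2 fold change was 1 or more in size. This held for 0 of 45 histone genes, beside 0 of 13873 genes (0%). At an unadjusted p under 0.05 there were 0 histone genes in either direction, beside 736 genes (5.31%) with a higher level after supplementation and 333 (2.4%) with a lower level. Over the other settings the share of all genes went from 3.1% to 9.29% higher and from 0.382% to 7% lower. With scaling by total counts alone it was 9.29% higher and 0.382% lower, and it was 7.06% higher and 7% lower without mito-supplemented replicate 1. The likelihood ratio test of edgeR, which the paper used for the differentially expressed genes it reported, called 58 genes and DESeq2 141, with 0 histone genes among either. Each gave 1 histone gene at an unadjusted p under 0.05, Hist2h2ab, of 45 and 44 with a p, since DESeq2 gave none for Hist1h2bc. The lowest adjusted p among histone genes was 0.66 in edgeR's quasi-likelihood test, for Hist2h2ab. The groups overlapped for all 45 histone genes, whereas over all genes tested 416 (3%) were higher without overlap after supplementation and 282 (2.03%) lower. The fitted log2 fold change was below 0 for 42 of the 45 genes, with a median of -0.80, and below 0 for 55.1% of all genes tested, with a median of -0.10. By family the median was -0.64 for 5 H1, -1.07 for 9 H2A, -0.67 for 14 H2B, -0.65 for 9 H3 and -0.85 for 8 H4 genes.

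This median depended on single libraries. Without control replicates 2 and 3 and mito-supplemented replicate 1, an alternative chosen after seeing the data and for the histone level itself, 37 histone genes were tested. Of these 19 were below 0 and 18 above, and their median was -0.11 beside -0.01 for all genes tested. Without mito-supplemented replicate 1 alone the median was -2.01, and 8 of 42 histone genes had an unadjusted p under 0.05, all lower, namely Hist1h1a, Hist1h1b, Hist1h1d, Hist1h2ab, Hist1h2ak, Hist1h3b, Hist1h3e and Hist1h4d, named after their values were seen, with 0 called. In that same setting 997 of 14251 genes (7%) were lower and 1006 of 14251 genes (7.06%) higher at an unadjusted p under 0.05. The median was -0.28 when control replicate 2 was left out, -0.44 for control replicate 3 and -0.53 for mito-supplemented replicate 3. Single histone genes also reached an unadjusted p under 0.05 without control replicate 1 (Hist2h2ab and Hist2h2ac), control replicate 4 (Hist2h2ab) and mito-supplemented replicate 4 (Hist2h3c1), in each case lower after supplementation, where 2.16%, 3.65% and 0.982% of all genes tested were lower in the same order. Hist1h2bg had 0 counts in both controls that remained without the 3 libraries and was kept there only through its counts in mito-supplemented libraries, so its fitted value there supports no difference, and with that gene at a lower bound the median was also -0.11. Hist1h2bb, Hist1h2bh, Hist1h2bj and Hist1h4j, each fitted above 0 there, also passed the filter only through mito-supplemented libraries. They had 11 and 0, 10 and 6, 5 and 1, and 11 and 6 counts in control replicates 1 and 4. The split of 19 and 18 and the median there thus rest partly on genes kept by the group where they were higher. No conclusion is drawn from that split or median.

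**Figure D3:**
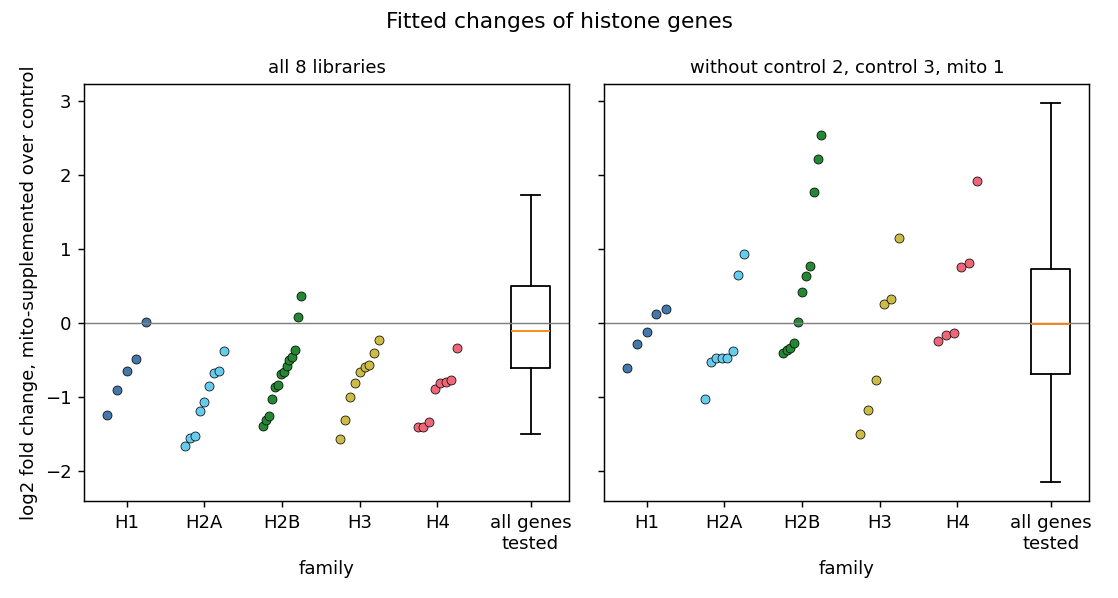
Fitted log2 fold change of each histone gene tested, mito-supplemented over control, by family, with all 8 libraries on the left and without control replicates 2 and 3 and mito-supplemented replicate 1 on the right, where Hist1h2bg is left out because both controls are at 0. Boxes give the quartiles and median of all genes tested and whiskers their 5th and 95th percentiles. The points lie mostly below 0 on the left, with a median of -0.80, and on both sides of 0 on the right, with a median of -0.11. The libraries left out were chosen for their histone level, and some genes on the right passed the filter only through mito-supplemented libraries.

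The 5 lowest fitted changes were those of Hist2 genes and an H2A gene of Hist1, with Hist1h4i at -1.40 and Hist1h2bj at -1.39 close behind. The other Hist2 genes tested were nearer 0, with Hist2h2bb at -0.83, Hist2h2be at -0.46 and Hist2h3b at -0.40. Hist2h2ac, an H2A gene, was at 0.861, 53.4, 59.2 and 15.99 CPM in control replicates 1 to 4 and 23.1, 5.61, 3.36 and 9.04 CPM in mito-supplemented replicates 1 to 4. Its groups overlapped (log2 fold change -1.66, standard error 1.01, adjusted p = 0.697 from edgeR), and without the 3 libraries that stand apart the log2 fold change was -0.47. Hist2h2ab, its neighbour on chromosome 3, was at 2.58, 12.9, 6.92 and 2.57 CPM in the controls and 3.01, 2.29, 1.41 and 1.81 CPM in the mito-supplemented libraries. Control replicates 2 and 3 were highest, and mito-supplemented replicate 1 came next, close to the remaining libraries (log2 fold change -1.55, standard error 0.75, adjusted p = 0.66 from edgeR, and exact permutation test, 2-sided, p = 0.114). The log2 fold change was -0.92 when control replicate 2 was left out and -0.47 without the 3 libraries that stand apart. Hist2h3c1, an H3 gene whose windows are all shared, was at 1.85, 9.83, 14.3 and 2.37 CPM in the controls and 2.18, 0.9, 1.68 and 4.87 CPM in the mito-supplemented libraries (log2 fold change -1.56, standard error 0.87, adjusted p = 0.681 from edgeR), and its highest libraries were control replicates 3 and 2. Without the 3 libraries that stand apart its log2 fold change was 0.26. Hist2h4, an H4 gene, had 12, 103, 87 and 1 counts in the controls and 74, 7, 19 and 4 in the mito-supplemented libraries, and Hist1h2an had 1, 43, 49 and 0 counts in the controls and 25, 3, 3 and 9 in the mito-supplemented libraries. Their log2 fold changes of -1.40 and -1.52 had standard errors of 1.24 and 1.42.
The fitted changes at the other end were near 0. For Hist1h2bc it was 0.37 on the log2 scale (standard error 0.88), for Hist1h2bg 0.09 (1.45), for Hist1h1c 0.02 (0.89), for Hist1h3c -0.23 (1.19) and for Hist4h4 -0.33 (1.22), and the sign of each of these 5 turned under other settings. For the members with the highest levels the values were -0.81 for Hist1h4d, -0.64 for Hist1h1b, -0.48 for Hist1h1e, -1.03 for Hist1h2bm, -0.69 for Hist1h2bl, -0.83 for Hist2h2bb and -1.24 for Hist1h1a, with standard errors from 0.76 to 1.07. Each is smaller than 2 standard errors.

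Some members are known to give polyadenylated messages in differentiated cells, and these were looked at on their own. Hist1h1c, an H1 gene, was at 8.12, 84.9, 61.2 and 31.8 CPM in the controls and 139, 13.99, 11.98 and 22.7 CPM in the mito-supplemented libraries. Its highest library was mito-supplemented replicate 1, and the groups overlapped. Hist1h2bc, an H2B gene, was at 1.03, 8.01, 6.46 and 6.91 CPM in the controls and 19.7, 2.98, 3.63 and 2.43 CPM in the mito-supplemented libraries. Here mito-supplemented replicate 1 was highest, and control replicate 4 lay between control replicates 3 and 2. Hist2h2be, an H2B gene with no shared window, was at 0, 18.2, 26.5 and 21.3 CPM in the controls and 23.05, 11.8, 5.31 and 7.93 CPM in the mito-supplemented libraries. It had 0 counts in control replicate 1, which allows up to 0.123 CPM, while control replicate 4 lay between control replicates 2 and 3. None of the 3 differed between groups beyond its spread (exact permutation test, 2-sided, p = 0.83 for Hist1h1c, 0.857 for Hist1h2bc and 0.943 for Hist2h2be).
The germ cell variants had few counts. Hist1h1t, the H1 of spermatocytes, had 0, 2, 9 and 0 counts in the controls and 17, 2, 2 and 0 in the mito-supplemented libraries. Hist1h2ba, the H2B variant of testis and oocytes, had 5, 4, 1 and 0 counts in the controls and 5, 1, 0 and 0 in the mito-supplemented libraries. Hist1h2aa, the H2A variant encoded beside it, had 8, 2, 9 and 33 counts in the controls and 65, 4, 5 and 3 in the mito-supplemented libraries, so that its highest levels, 6.51 and 3.15 CPM, were in control replicate 4 and mito-supplemented replicate 1. Neither Hist1h1t nor Hist1h2ba reached 1 CPM in any library, and the 3 variants were not tested. Control replicate 1, which had the highest oocyte marker level, held 5 counts of Hist1h2ba and 8 of Hist1h2aa.

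Genes that make and handle histone messages were followed beside them, with 0 genes of these or the later lists called in edgeR's quasi-likelihood test, beside 0% of all genes. The list of histone mRNA transcription, processing and decay summed to 1126, 1725, 1607 and 858 CPM in the controls and 1192, 677, 650.1 and 573 CPM in the mito-supplemented libraries. Within it, 17 of 18 genes tested were below 0 with a median log2 fold change of -0.67, and at an unadjusted p under 0.05 there were 0 higher and 2 lower, Casp8ap2 and Pou2f1, beside 55.1% of all genes tested below 0, 5.31% higher and 2.4% lower. Under the other settings 0 to 5 were lower at that p, with 5 without mito-supplemented replicate 1, and with scaling by total counts alone 14 of 18 were below 0 with a median of -0.39, beside 41.5% of all genes below 0. Slbp, the stem-loop binding protein, was at 48.2, 230.5, 226 and 39.7 CPM in the controls and 164, 42.2, 29.99 and 57.4 CPM in the mito-supplemented libraries, and the high libraries were those of the histone genes. Npat, the cyclin E target that activates histone transcription, was at 64.9, 204, 212 and 61.6 CPM in the controls and 126, 89.3, 79.98 and 51.5 CPM in the mito-supplemented libraries, again with the same libraries on top. Casp8ap2, which works with Npat at histone loci, was at 133, 303, 280.1 and 142 CPM in the controls and 165, 90.03, 89.9 and 58.7 CPM in the mito-supplemented libraries. Its groups overlapped through mito-supplemented replicate 1 (log2 fold change -1.09, standard error 0.43, adjusted p = 0.626 from edgeR, and exact permutation test, 2-sided, p = 0.0857). The U7 particle proteins Lsm10 and Lsm11 and the associated factor Zfp473 did not share the order of libraries: Lsm10 ranged from 2.57 to 6.18 CPM, Lsm11 from 6.51 CPM to 19.5 CPM in mito-supplemented replicate 4, and Zfp473 from 0.728 CPM in mito-supplemented replicate 1 to 16.2 CPM in control replicate 4.

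Histone chaperones, which carry histones to DNA, summed to 2152, 2569, 2679.6 and 2290.0 CPM in the controls and 2317, 1961, 1892 and 1919.5 CPM in the mito-supplemented libraries, a much narrower range, with a ratio of 1.42 between the highest and lowest library. Within the list, 16 of 18 genes tested were below 0 with a median log2 fold change of -0.46, and at an unadjusted p under 0.05 there were 0 higher and 2 lower, beside the same shares of all genes. With scaling by total counts alone 11 of 18 were below 0 with a median of -0.16, and the count of lower genes went from 0 to 4 over the other settings. Nasp, a chaperone of H1 and of H3 with H4, was at 309, 204, 264 and 188 CPM in the controls and 165, 137, 155 and 95.3 CPM in the mito-supplemented libraries. Under TMM scaling every mito-supplemented library lay below every control, which was the case for 2.03% of all genes tested. The log2 fold change was -0.80 (standard error 0.31, adjusted p = 0.626 from edgeR). An exact permutation test, 2-sided, gave p = 0.0286, the smallest that 4 against 4 libraries allow. By total counts alone the groups overlapped, with 953 of 10370045 counts in control replicate 4 and 1371 of 13276462 in mito-supplemented replicate 4. By counts outside rRNA genes they also overlapped, with 2573 of 8168025 in control replicate 2 and 3415 of 10254985 in mito-supplemented replicate 3. Asf1b, the S phase chaperone of H3 with H4, was at 13, 43.5, 39.8 and 21.7 CPM in the controls and 23, 3.74, 4.4 and 8.76 CPM in the mito-supplemented libraries (log2 fold change -1.56, standard error 0.66, adjusted p = 0.635 from edgeR). Npm2, the oocyte chaperone nucleoplasmin, was at 9.48, 0.634, 0.172 and 3.95 CPM in the controls and 0, 1.18, 3.95 and 0 CPM in the mito-supplemented libraries, with its highest level in control replicate 1.
Replication-independent variants summed to 255, 852, 775 and 532 CPM in the controls and 749, 316, 299 and 457 CPM in the mito-supplemented libraries, a ratio of 3.34. Of 16 genes present, H1fnt, Hils1 and H2afb1 had 0 counts in every library, and 10 of 11 genes tested were below 0 with a median log2 fold change of -0.42, and at an unadjusted p under 0.05 there were 0 higher and 0 lower, again beside 55.1% of all genes below 0 and 2.4% lower. With scaling by total counts alone 6 of 11 were below 0 with a median of -0.07, and 2 were lower at that p without mito-supplemented replicate 1, where 7% of all genes were, and 0 in each other setting. H2afx, whose gene gives both stem-loop and polyadenylated messages, was at 30.1, 310.3, 249 and 61.98 CPM in the controls and 297, 54.02, 26.4 and 46.4 CPM in the mito-supplemented libraries, and H2afz at 44.9, 186, 235 and 126 CPM in the controls and 162, 53.7, 85.6 and 95.2 CPM in the mito-supplemented libraries. Both were highest in the libraries that were high for replication-dependent genes. H1f0, the linker histone of resting cells, was at 48.7, 113, 78.5 and 203 CPM in the controls and 108, 87.5, 67.4 and 171 CPM in the mito-supplemented libraries, with its highest levels in control replicate 4 and mito-supplemented replicate 4. H1foo, the oocyte linker histone, was at 25.2, 0.396, 1.49 and 1.18 CPM in the controls and 2.13, 1.45, 7.12 and 1.04 CPM in the mito-supplemented libraries, and control replicate 1 was its highest library, as for the oocyte markers. H3f3a was at 9.23, 32.5, 31.9 and 9.67 CPM in the controls and 32.1, 9.49, 11.7 and 26.4 CPM in the mito-supplemented libraries. It too was highest in control replicates 2 and 3 and mito-supplemented replicate 1. H3f3b ranged from 0 to 1.66 CPM. When control replicates 2 and 3 and mito-supplemented replicate 1 were left out, 16 of 18 genes of the processing list were below 0 with a median of -0.39, 12 of 18 chaperones with -0.29 and 8 of 12 variants with -0.11. With 1 library left out at a time these medians went from -0.88 to -0.56, from -0.68 to -0.28 and from -0.81 to -0.10 in the same order.

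The cell cycle lists moved with the histone genes. The S phase and replication list of 40 genes summed to 1576, 6507, 6355 and 1422 CPM in control replicates 1 to 4 and 3638, 1030.5, 1019.8 and 1071 CPM in mito-supplemented replicates 1 to 4. Pcna, the sliding clamp of DNA polymerase, was at 55.1, 288, 305 and 54.7 CPM in the controls and 189, 49.5, 45.1 and 82.3 CPM in the mito-supplemented libraries, and Mcm2 and Mcm5, subunits of the replicative helicase, reached 183 and 171 CPM in control replicate 3. Ccne1 and Ccne2, the E cyclins of S phase entry, were highest in control replicate 3 at 60.5 and 53.8 CPM. In the S phase list, 39 of 40 genes tested were below 0 with a median log2 fold change of -1.20. At an unadjusted p under 0.05 there were 0 higher and 6 lower, beside 55.1% below 0 and 2.4% lower of all genes tested. The G2 and mitosis list of 21 genes summed to 2890.1, 27128, 21154 and 2904 CPM in the controls and 16283, 2433, 1981 and 2093 CPM in the mito-supplemented libraries. Its most abundant gene was Mki67, a nuclear protein of dividing cells, at 489, 18024, 13705 and 1094 CPM in the controls and 10073, 1113, 707 and 881 CPM in the mito-supplemented libraries. Top2a, the topoisomerase of dividing cells, was at 117, 2391, 2065 and 364 CPM in the controls and 1518, 334, 292 and 312 CPM in the mito-supplemented libraries, and Ccna2, cyclin A2, at 88.2, 511, 503 and 153 CPM in the controls and 496, 49.9, 62.2 and 86.4 CPM in the mito-supplemented libraries. In the G2 and mitosis list, 21 of 21 genes tested were below 0 with a median log2 fold change of -1.03, and at an unadjusted p under 0.05 there were 0 higher and 1 lower, Bub1, named after its values were seen, beside the same shares of all genes tested, 55.1% below 0 and 2.4% lower. These counts depended on the scaling and test as well as on single libraries. With scaling by total counts alone 0 S phase and 0 G2 and mitosis genes were lower, with scaling by counts outside rRNA genes 11 and 5, with DESeq2 12 and 2, and with counts summed by label code 14 and 10, beside 0.382%, 2.4%, 4.24% and 1.99% of all genes. For the S phase list 31 genes were lower at an unadjusted p under 0.05 without mito-supplemented replicate 1, 13 without control replicate 1 or control replicate 4, and 0 without any other single library, and for the G2 and mitosis list 17 without mito-supplemented replicate 1 and from 1 to 4 otherwise, where 997 of 14251 genes (7%) were lower without mito-supplemented replicate 1. The medians went from -1.95 to -0.86 for the S phase and from -2.12 to -0.65 for the G2 and mitosis list. Without control replicates 2 and 3 and mito-supplemented replicate 1, 31 of 40 S phase genes were below 0 with a median of -0.44 and 4 lower at that p, and 18 of 21 G2 and mitosis genes with a median of -0.76 and 6 lower, beside 715 of 14568 genes (4.91%).

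Markers of other cell types also moved with the histone level. The 10 erythroid genes present in the table summed to 53.7, 6938, 4514 and 126 CPM in control replicates 1 to 4 and 6944, 146, 78.3 and 96.4 CPM in mito-supplemented replicates 1 to 4. The most abundant per length was Slc4a1, the anion exchanger of the red cell membrane, at 4.06, 2504, 1704 and 22.3 CPM in the controls and 2998, 47.6, 10.1 and 9.32 CPM in the mito-supplemented libraries, and the defining globin gene Hba-a1 had 0 counts in every library but mito-supplemented replicate 1. Control replicates 2 and 3 and mito-supplemented replicate 1, the libraries high in histone genes, were also the libraries high in erythroid genes, by a ratio of 129 between the highest and the lowest library. Of 8 erythroid genes tested 8 were below 0, with a median log2 fold change of -0.68 and 0 at an unadjusted p under 0.05, but 7 of 8 were lower at that p without mito-supplemented replicate 1, beside 7% of all genes. The erythroid median was -4.89 without mito-supplemented replicate 1, 0.08 without control replicate 2 and 0.56 without the 3 libraries high in histone genes. The 9 immune genes present summed to 16.4, 139, 122 and 22.1 CPM in the controls and 770.5, 12.5, 19.96 and 8.69 CPM in the mito-supplemented libraries, led by Lyz2 at 638 CPM in mito-supplemented replicate 1, and C1qb had 0 counts in every library. The part of these cell types in the histone level was not tested. The remaining lists had another order of libraries. Stroma markers summed to 426, 513, 784 and 2615 CPM in the controls and 1048, 1081, 2899 and 2492 CPM in the mito-supplemented libraries, led by Mfap4. Endothelial markers, led by Kdr, summed to 27.3, 29.5, 46.8 and 225 CPM in the controls and 97.7, 228, 189.8 and 204 CPM in the mito-supplemented libraries, and surface epithelium markers, led by Aldh1a2, to 95.3, 52.5, 40.03 and 371 CPM in the controls and 303, 843, 374 and 814 CPM in the mito-supplemented libraries. Smooth muscle markers, led by Acta2, summed to 39.7, 23.5, 52.6 and 289 CPM in the controls and 47.8, 83.04, 104 and 365 CPM in the mito-supplemented libraries. For each of these 3 lists and for pregranulosa markers, control replicates 2 and 3 were below control replicate 4 and below mito-supplemented replicates 2 to 4. The median log2 fold changes were -1.76 for 16 oocyte, 0.96 for 13 pregranulosa, 0.74 for 10 stroma, 0.90 for 6 immune, 1.10 for 8 endothelial, 1.88 for 10 surface epithelium and 0.41 for 7 smooth muscle genes tested. Several of these depended on single libraries: the oocyte median was 0.27 without control replicate 1, the immune median -1.97 without mito-supplemented replicate 1, and the smooth muscle median -0.41 without mito-supplemented replicate 4, -0.07 without control replicate 2 and 2.10 without control replicate 4. With 1 library left out at a time the median kept its sign for pregranulosa (0.49 to 1.36), stroma (0.44 to 1.69), endothelial (0.43 to 1.57) and surface epithelium genes (1.49 to 3.37). Without control replicates 2 and 3 and mito-supplemented replicate 1 the medians were -2.47 for oocyte, -1.17 for immune, -0.26 for smooth muscle, 0.49 for pregranulosa, 0.56 for stroma, 0.82 for endothelial and 1.35 for surface epithelium genes. At an unadjusted p under 0.05, 6 surface epithelium, 3 pregranulosa and 1 endothelial gene were higher and 1 oocyte gene was lower in mito-supplemented samples, beside 5.31% higher and 2.4% lower of all genes tested. These were Amhr2, Lgr5 and Irx3 for pregranulosa, Esam for endothelial and Kit for oocyte markers, named after their values were seen. With 1 library left out at a time the count of higher genes went from 2 to 10 for surface epithelium, 2 to 5 for pregranulosa, 1 to 2 for endothelial, 0 to 6 for stroma and 0 to 2 for smooth muscle genes, each at its highest without control replicate 4, where 8.98% of all genes were higher. The count of lower genes went from 0 to 4 for oocyte and, through the setting without mito-supplemented replicate 1, from 0 to 7 for erythroid and 0 to 2 for immune genes. Without control replicates 2 and 3 and mito-supplemented replicate 1, 10 of 17 oocyte genes were lower at that p, beside 4.91% of all genes. Only control replicates 1 and 4 remained as controls there. Control replicate 1 was the highest library for all 16 oocyte genes tested in the fit of all 8 libraries. That count and the oocyte median of -2.47 thus cannot be told apart from the level of this 1 library. With scaling by total counts alone 9 surface epithelium, 5 pregranulosa, 5 stroma, 2 endothelial and 1 smooth muscle genes were higher and 0 oocyte genes lower, beside 9.29% and 0.382% of all genes. The likelihood ratio test called 2 surface epithelium genes and 1 endothelial gene, all higher, among its 58 of 13873 genes, and DESeq2 2 surface epithelium, 2 pregranulosa and 1 endothelial, all higher, among its 141.

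**Figure D4:**
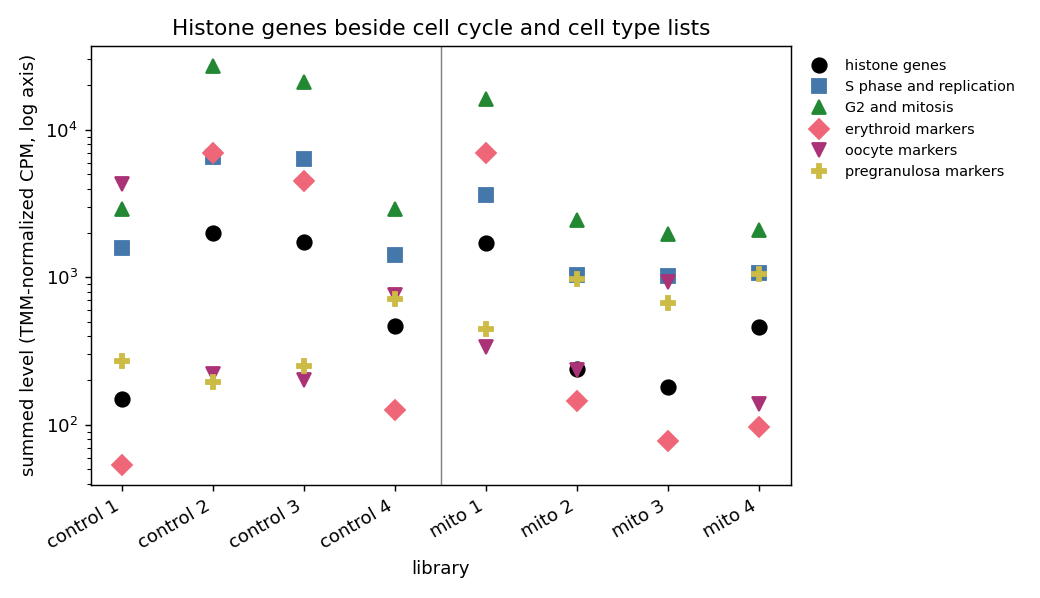
Summed level of histone genes and of 5 gene lists in each library, in TMM-normalized CPM on a log axis, with 4 control libraries left of the grey line and 4 mito-supplemented (mito) libraries right of it. Histone, S phase, G2 and mitosis and erythroid points are highest in control replicates 2 and 3 and mito-supplemented replicate 1, where erythroid markers reach 6938, 4514 and 6944 CPM, whereas oocyte markers are highest in control replicate 1 at 4282 CPM.

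The order of the libraries was also looked at under other scalings. By total counts alone, without TMM, the histone sum of control replicate 4 was 228 CPM in place of 467 CPM, and by counts outside rRNA genes it was 924 CPM. Control replicate 2 was the highest library under each of these scalings and with DESeq2 size factors.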

How the data were processed

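The authors trimmed the reads of 8 libraries, mapped them to GRCm38 with STAR and deposited a count per gene symbol from featureCounts on annotated exons. They left out 1 further control library as an outlier. With edgeR 4.0.16 in R 4.3.3, TMM scaling and the default filter, all genes were fitted with group as the only term, and CPM on the log2 scale used a prior count of 2. DESeq2 1.42.0 and the likelihood ratio test were alternatives, beside other scalings and filters, the replicate block and leaving out libraries. Named genes were the 8 members with the highest level per length, the 5 tested with the highest and the 5 with the lowest log2 fold change, variants and polyadenylated members, and fixed genes of the lists, with the gene of each marker list that was most abundant per length. Members and lists were chosen with earlier results of these data known. Shared windows and the histone stem-loop were searched in GENCODE M21 transcripts. Limits for 0 counts cover counting error only.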

Additional observations from a re-analysis of the deposited data

Results flagged for a closer look

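A library was noted where its gap to the nearest of the other 3 of its group was larger, as a share of the range of the group, than the 95% critical value of the Dixon test. For normally distributed values chance gives this in about 1 in 20 groups. CPM without a log can be skewed towards high values, so that rate need not hold here. The mark was met in 39 of 144 groups of values, which are not independent of each other since sums hold the named genes. In mito-supplemented replicate 1 these were, in CPM, the sum of H2A genes at 153, the sum of H2B genes at 348, the sum of H3 genes at 92.5, the sum of histone mRNA transcription, processing and decay genes at 1192, the sum of histone chaperones genes at 2317, the sum of S phase and replication genes at 3638, the sum of G2 and mitosis genes at 16283, the sum of erythroid markers at 6944, the sum of immune markers at 770.5, Hist1h1b at 298, Hist1h2bm at 96.9, Hist1h2bl at 66.8, Hist2h2bb at 62.9, Hist1h1c at 139, Hist1h2bc at 19.7, Hist1h3c at 25.3, Hist1h1t at 0.825, Hist1h2aa at 3.15, H2afx at 297, Mcm2 at 146, Ccne1 at 23.7, Mki67 at 10073, Top2a at 1518, Ccna2 at 496, Slc4a1 at 2998, Lyz2 at 638. In control replicate 1 these were, in CPM, the sum of oocyte markers at 4282, H1foo at 25.2, Nlrp5 at 1392. In control replicate 4 these were, in CPM, the sum of pregranulosa markers at 709, the sum of stroma markers at 2615, the sum of endothelial markers at 225, the sum of surface epithelium markers at 371, the sum of smooth muscle markers at 289, Hist1h2aa at 6.51, Wt1 at 333, Kdr at 148. In mito-supplemented replicate 4 these were, in CPM, Lsm10 at 2.57, Lsm11 at 19.5. The causes were not tested.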

How the results depend on the processing

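No histone gene was called under any of the 17 planned settings or without control replicates 2 and 3 and mito-supplemented replicate 1, a setting chosen after seeing the data and for the histone level itself. Among all genes, 0 were called in each, except 58 with the likelihood ratio test and 141 with DESeq2. Histone genes at an unadjusted p under 0.05 numbered 0 of 45 in the reported fit, and 1 of 45 with the likelihood ratio test and 1 of 44 with DESeq2, which gave no p for Hist1h2bc, where 416 of 13873 genes (3%) and 579 of 13657 genes (4.24%) were lower. They numbered 1 of 68 with a filter of 1 count in any library (Hist1h3h), beside 511 of 20837 genes (2.45%) lower, and 2 of 56 with counts summed over samples whose label codes start alike (Hist1h1a and Hist2h2ac), beside 312 of 15705 genes (1.99%) lower. Without the 3 libraries that stand apart there was 1 of 37 (Hist1h2bg), beside 861 of 14568 genes (5.91%) higher, but it had 0 counts in both controls left and passed the filter only through mito-supplemented libraries, so the count supports no difference. When 1 library was left out they numbered from 0 to 8. The median log2 fold change of the histone genes tested was below 0 under every setting, from -2.01 without mito-supplemented replicate 1 to -0.11 without the 3 libraries, and from -2.01 to -0.28 when 1 library was left out. The difference in summed level ranged from -794 to -136 CPM when 1 library was left out.

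With the replicate block, 0 genes were called and 981 had an unadjusted p under 0.05, and the histone median was -0.90. Samples with the same number did not pair, with correlations of -0.244, -0.191, -0.334 and 0.222 for numbers 1 to 4. Scaling by total counts alone moved the median of all genes tested from -0.10 to 0.17, and the histone median relative to it from -0.70 to -0.73, and with it 1289 of 13873 genes (9.29%) were higher and 53 of 13873 genes (0.382%) lower at an unadjusted p under 0.05.

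The log2 fold change of some named genes changed sign, each at an adjusted p above 0.05 in edgeR or DESeq2. Without the 3 libraries that stand apart, the sign turned to Hist1h1e 0.19, Hist1h2bm 0.64, Hist2h2bb 0.77, Hist1h1a 0.13, Hist1h1c -0.28, Hist2h3c1 0.26, Hist1h2bc -0.36, Hist1h3c 0.32, Hist4h4 1.92. With DESeq2: Hist1h1c -0.021. With DESeq2 size factors in edgeR: Hist1h1c -0.021. Scaled by counts outside rRNA genes: Hist1h1c -0.14. With the replicate block: Hist1h1c -0.80, Hist1h2bc -0.31, Hist4h4 0.10. Summed by label code: Hist1h1c -0.091, Hist4h4 0.024. Scaled by total counts alone: Hist2h2be 0.006. When 1 library was left out, values on both sides of 0 were seen, Hist2h2bb from -2.22 to 0.014, Hist1h1c from -1.51 to 0.48, Hist1h2bc from -0.87 to 0.67, Hist1h2bg from -0.47 to 0.88, Hist1h3c from -2.34 to 1.19, Hist4h4 from -0.72 to 0.55. The causes were not tested. Control replicate 4 had the fewest counts outside rRNA genes, and the upper limit of a count of 0 was highest there.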
